A study of Rattus norvegicus with 24 samples.

Results

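Tdo2, Kmo, Kynu, Haao, Acmsd and Aass encode enzymes that break down tryptophan and lysine, and they were taken as a list of 6 genes out of 14217 genes named on the array. The platform annotation gives each of them exactly 1 probe set (1368720_at for Tdo2, 1368915_at for Kmo, 1398282_at for Kynu, 1368794_at for Haao, 1370147_at for Acmsd and 1377375_at for Aass), so all 6 members were measured, each by 1 of 31042 tested probe sets, and none can be checked against another probe set. The genes were measured in primary rat hepatocytes in sandwich culture, in which liver cells lie between layers of matrix. Cells were treated for 24 h with 625 µM BZP, 35 µM TFMPP, 522 µM MeOPP or 467 µM MDBP, which the labels give as the EC20 of each drug, or with 0.1 percent DMSO. Each drug had 3 treated samples, and the labels name a DMSO control for each of them, which gives 12 pairs on 24 arrays. These are piperazine designer drugs. In benzylpiperazine (BZP) and methylenedioxybenzylpiperazine (MDBP) the ring bears a benzyl group, and in trifluoromethylphenylpiperazine (TFMPP) and methoxyphenylpiperazine (MeOPP) a phenyl group. Whether replicates stem from separate animals or cultures is not stated in the labels. The p-values thus reflect only how these samples vary, and that variation may be technical.

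The liver degrades most dietary tryptophan through the kynurenine pathway. Tdo2 opens the indole ring at the entry, Kmo hydroxylates kynurenine, Kynu cleaves the product to hydroxyanthranilate, and Haao opens that ring to an unstable intermediate. The intermediate either closes by itself to quinolinate, a precursor of NAD, or is decarboxylated by Acmsd and sent to glutaryl-CoA. Aass, a bifunctional mitochondrial enzyme, starts the main route of lysine breakdown, which also ends in glutaryl-CoA.

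Aass, Kynu, Haao, Kmo and Acmsd were lower in every pair, and the entry enzyme Tdo2 showed the smallest change of the 6 members. Averaged over the drugs, Aass changed by -1.82 ± 0.10 on the log2 scale as drug minus paired DMSO (SE, n = 12 pairs; 3.53-fold lower; limma adjusted p = 2.42e-09) and Kynu by -1.48 ± 0.07 (2.78-fold lower; adjusted p = 1.64e-09). Haao changed by -0.99 ± 0.07, Kmo by -0.70 ± 0.09 and Acmsd by -0.69 ± 0.10, with adjusted p of 3.26e-08, 3.29e-05 and 9.19e-05. These 5 genes were lower in the treated array in 12 of 12 pairs, and the share of all probe sets lower in every pair was not counted. Tdo2 changed by -0.13 ± 0.04 and was lower in 10 of 12 pairs, and its adjusted p = 0.0498 lay just inside the threshold of 0.05 used for a change. All 6 members were thus called lower, against a background of 9.85% of tested probe sets called lower in the same comparison. The median change was -0.84 over the members and 0.00076 over all tested probe sets. Only 13 probe sets had a deeper change than Aass and 34 a deeper one than Kynu. Without the pair terms limma called 3 of the 6, namely Aass, Kynu and Haao. That fit called 1927 of 31042 probe sets in either direction. These are bulk samples, in which fewer cells of a type and less RNA per cell cannot be told apart.

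With single drugs, 5 of 6 members were called lower with BZP (background 4.48% of probe sets), 3 with TFMPP (1.22%), 4 with MeOPP (3.78%) and 5 with MDBP (3.76%). Kynu, Haao and Aass were called with each of the drugs, whereas 297 probe sets, or 0.957% of those tested, were called lower with each of them. Kmo was called with BZP and MDBP, and Acmsd with BZP, MeOPP and MDBP. Tdo2 was called with no single drug. Of the 72 differences between a treated array and its control, 70 were below 0. These come from 6 genes over the same 12 pairs and are not independent, and the share over all probe sets was not counted. Without the pair terms 0 of 6 members were called with each single drug by limma, and 3, 1, 3 and 3 had an unadjusted p under 0.05 for BZP, TFMPP, MeOPP and MDBP. Over all 31042 probe sets 38, 1, 12 and 28 were called with these drugs. The share of probe sets with an unadjusted p under 0.05 in that fit was not counted.

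**Figure D1:**
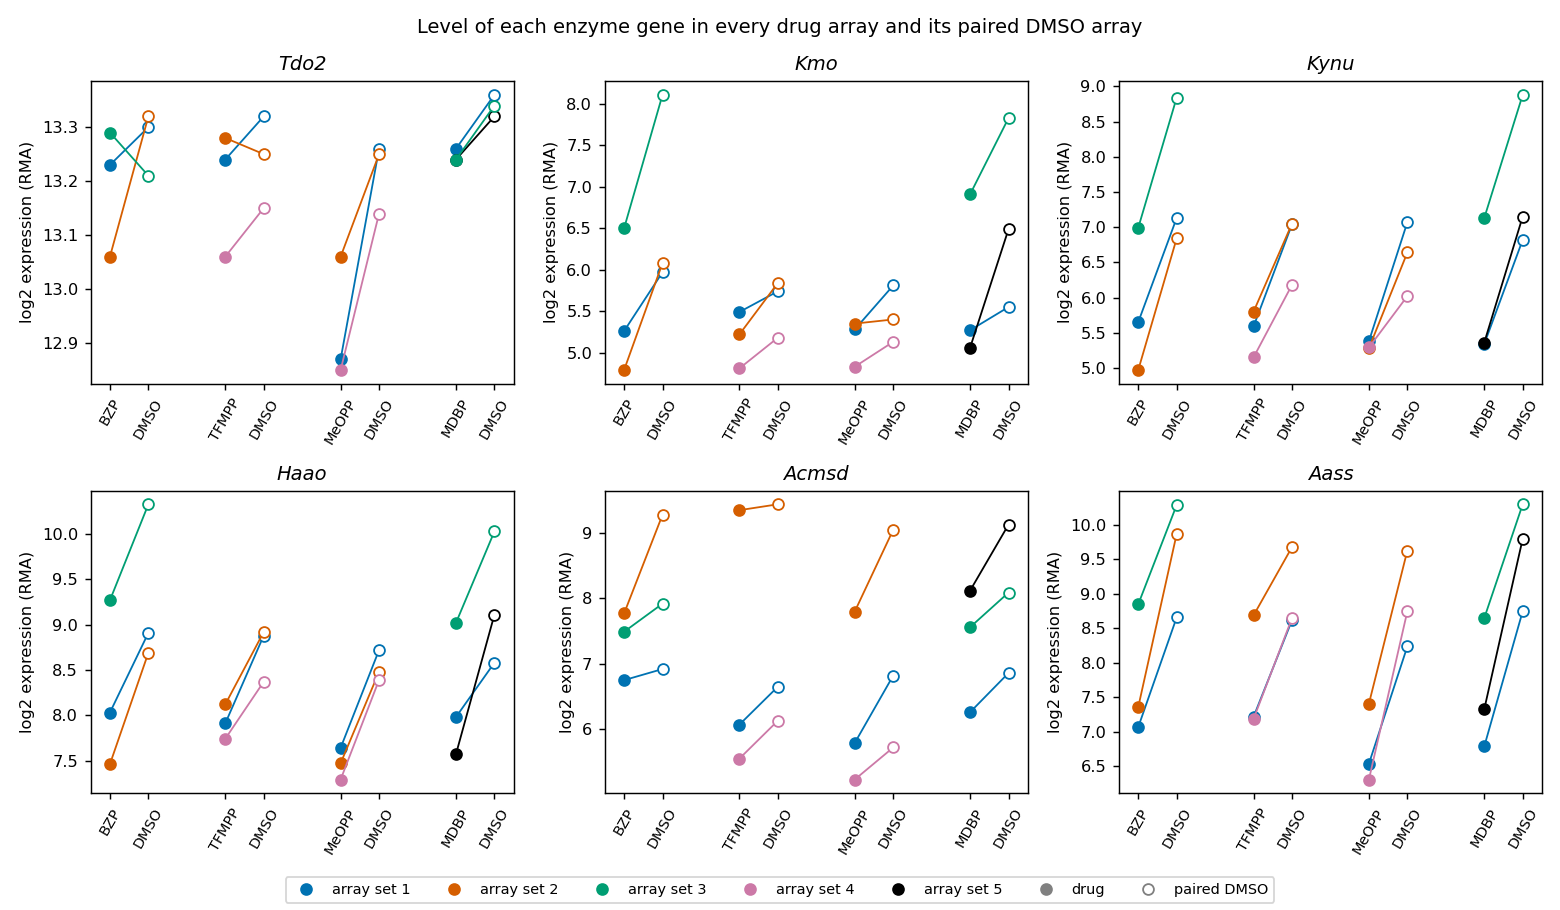
Log2 expression (RMA) of each gene in every array, with the drug arrays (filled points) to the left of their paired DMSO arrays (open points) and lines joining the pairs. Colours mark 5 sets of alike DMSO arrays. Lines of Kynu, Haao and Aass run up to the DMSO array in all 12 pairs, while the Tdo2 panel spans only 12.85 to 13.36.

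**Figure D2:**
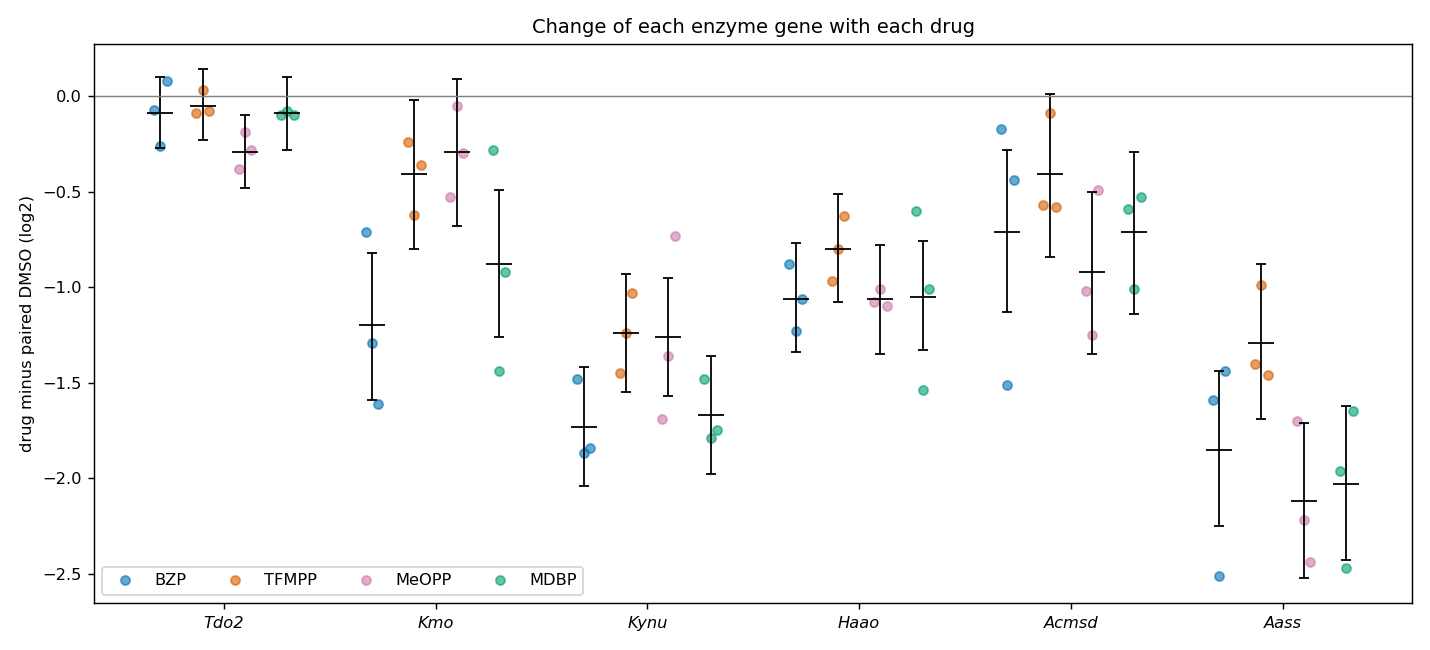
Drug minus paired DMSO (log2) for each gene and drug. Coloured points are the 3 pairs, and black bars give the limma estimate with its 95% confidence interval. Aass and Kynu lie lowest with every drug, and the Kmo estimates run from -1.20 with BZP to -0.29 with MeOPP.

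Tdo2, the haem dioxygenase at the entry of the pathway, had a high signal on every array. Its log2 levels were 12.87, 13.06 and 12.85 with MeOPP, against 13.26, 13.25 and 13.14 in its DMSO controls. They were 13.23, 13.06 and 13.29 with BZP, against 13.30, 13.32 and 13.21 in its DMSO controls. The MeOPP samples lay below all of their controls, and the BZP samples overlapped theirs. Levels were 13.24, 13.28 and 13.06 with TFMPP, against 13.32, 13.25 and 13.15 in its DMSO controls, and 13.26, 13.24 and 13.24 with MDBP, against 13.36, 13.32 and 13.34 in its DMSO controls. The TFMPP groups overlapped and the MDBP groups did not, although the MDBP difference was -0.09 ± 0.09. The deepest change was the one with MeOPP, -0.29 ± 0.09 (adjusted p = 0.0717 in limma), with 3 of 3 pairs lower. It passed under 4 of 21 alternatives, among them repeated quantile normalization, at 0.0424. The call for the mean of the drugs was lost when any single pair other than replicate 3 of BZP was left out, at adjusted p from 0.0525 to 0.111. Only 0.0419% of probe sets had a higher mean level than Tdo2, at 13.2 over all arrays.

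Kmo, the monooxygenase of the outer mitochondrial membrane, fell with both benzylpiperazines. Its log2 levels were 5.26, 4.79 and 6.50 with BZP, against 5.97, 6.08 and 8.11 in its DMSO controls. They were 5.27, 5.06 and 6.91 with MDBP, against 5.55, 6.49 and 7.83 in its DMSO controls. In every pair the treated sample was lower, but the pairs stood at very different levels and the groups overlapped. With BZP the change was -1.20 ± 0.18 (SE, n = 3 pairs; limma adjusted p = 0.000513) and with MDBP -0.88 ± 0.18 (adjusted p = 0.00727). The MDBP call was lost without its replicate 2, at 0.124, and without its replicate 3, at 0.0632. With the phenylpiperazines the levels were 5.49, 5.22 and 4.81 with TFMPP, against 5.74, 5.84 and 5.18 in its DMSO controls, and 5.28, 5.35 and 4.83 with MeOPP, against 5.81, 5.40 and 5.13 in its DMSO controls. The differences did not pass, at -0.41 ± 0.18 for TFMPP (adjusted p = 0.388) and -0.29 ± 0.18 for MeOPP (adjusted p = 0.446).

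Kynu, the kynureninase that acts after Kmo, fell with all drugs. Its log2 levels were 5.65, 4.97 and 6.99 with BZP, against 7.13, 6.84 and 8.84 in its DMSO controls. They were 5.34, 5.36 and 7.13 with MDBP, against 6.82, 7.15 and 8.88 in its DMSO controls. The pair differences were -1.48, -1.87 and -1.84 with BZP and -1.48, -1.79 and -1.75 with MDBP, although replicate 3 of either drug stood above the lowest control. With TFMPP and MeOPP the groups did not overlap, since levels were 5.59, 5.80 and 5.15 with TFMPP, against 7.04, 7.05 and 6.18 in its DMSO controls, and 5.38, 5.28 and 5.29 with MeOPP, against 7.07, 6.64 and 6.02 in its DMSO controls. Changes were -1.73 ± 0.15 with BZP, -1.67 ± 0.15 with MDBP, -1.26 ± 0.15 with MeOPP and -1.24 ± 0.15 with TFMPP (SE, n = 3 pairs each), with limma adjusted p from 3.75e-06 to 0.000457.

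Haao, the dioxygenase that opens hydroxyanthranilate, fell with all drugs. Changes were -1.06 ± 0.13 with BZP, -1.05 ± 0.13 with MDBP, -1.06 ± 0.13 with MeOPP and -0.80 ± 0.13 with TFMPP (SE, n = 3 pairs each), with limma adjusted p from 0.000122 to 0.00513. The TFMPP call was lost without its replicate 1, at 0.085, and without its replicate 2, at 0.0513. The log2 levels were 7.64, 7.47 and 7.29 with MeOPP, against 8.72, 8.48 and 8.39 in its DMSO controls, and 7.91, 8.12 and 7.74 with TFMPP, against 8.88, 8.92 and 8.37 in its DMSO controls. The groups of these drugs did not overlap. The levels were 8.03, 7.46 and 9.27 with BZP, against 8.91, 8.69 and 10.33 in its DMSO controls, and 7.98, 7.57 and 9.02 with MDBP, against 8.58, 9.11 and 10.03 in its DMSO controls. Here the groups overlapped, since replicate 3 with BZP (9.27) lay above the controls of replicates 1 and 2, and replicate 3 with MDBP (9.02) above the control of replicate 1.

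Acmsd, the decarboxylase that directs carbon away from quinolinate, had the widest spread of levels among samples. Treated samples ran from 5.23 to 9.35, with a median of 7.12, and DMSO controls from 5.72 to 9.44, with a median of 7.42. Its log2 levels were 6.75, 7.77 and 7.49 with BZP, against 6.92, 9.28 and 7.92 in its DMSO controls, and 5.79, 7.80 and 5.23 with MeOPP, against 6.82, 9.05 and 5.72 in its DMSO controls. They were 6.26, 8.12 and 7.56 with MDBP, against 6.86, 9.13 and 8.09 in its DMSO controls, and 6.07, 9.35 and 5.55 with TFMPP, against 6.65, 9.44 and 6.13 in its DMSO controls. Treated and control groups overlapped with every drug, and replicate 2 was the highest in each of these groups. The change with BZP was -0.71 ± 0.20 (limma adjusted p = 0.0358), made up of pair differences of -0.17, -1.51 and -0.44. Replicate 2 of BZP stood well below the other pairs, and the call was lost without it, at 0.374, and without replicate 3, at 0.0622. With MeOPP the pair differences were -1.02, -1.25 and -0.49 and the change -0.92 ± 0.20 (adjusted p = 0.0109), a call lost without replicate 1, at 0.0931, and without replicate 2, at 0.135. With MDBP they were -0.59, -1.01 and -0.53 and the change -0.71 ± 0.20 (adjusted p = 0.0423), which was lost without any of its own pairs, at 0.0982 to 0.273, and without replicate 1 or 3 of TFMPP or replicate 1 of MeOPP, at 0.0528 to 0.0565. With TFMPP they were -0.57, -0.09 and -0.58, and the change of -0.41 ± 0.20 did not pass (adjusted p = 0.452). The mean over the drugs was less dependent on a single pair, with adjusted p from 4e-05 to 0.000461 when any of the 12 pairs was left out, though without the pair terms it was 0.571.

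Aass, the aminoadipic semialdehyde synthase, showed the deepest change of the list. The log2 levels were 6.54, 7.41 and 6.31 with MeOPP, against 8.24, 9.63 and 8.75 in its DMSO controls, and 6.79, 7.33 and 8.65 with MDBP, against 8.75, 9.80 and 10.30 in its DMSO controls. The treated groups lay wholly below their controls with these drugs. The levels were 7.07, 7.36 and 8.85 with BZP, against 8.66, 9.87 and 10.29 in its DMSO controls, and 7.22, 8.69 and 7.19 with TFMPP, against 8.62, 9.68 and 8.65 in its DMSO controls. These groups overlapped slightly, and each treated sample was still below its own control, the smallest difference being -0.99 in replicate 2 of TFMPP. Changes were -2.12 ± 0.19 for MeOPP, -2.03 ± 0.19 for MDBP, -1.85 ± 0.19 for BZP and -1.29 ± 0.19 for TFMPP (SE, n = 3 pairs each), with limma adjusted p from 1.03e-05 to 0.00223.

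Promoter sequences are shown for Aass and Kynu, which changed most, and for Tdo2, which changed least. RefSeq windows on GRCr8 matched 5 of 6 members, and Acmsd was not matched. Each window holds the 250 bases before the annotated gene start, 5′ to 3′ on the strand of the gene, and capitals mark matches to the motifs searched. The windows are chr4:52628812-52629061 on the minus strand for Aass, chr3:48188036-48188285 on the plus strand for Kynu and chr2:169585587-169585836 on the minus strand for Tdo2.
Aass: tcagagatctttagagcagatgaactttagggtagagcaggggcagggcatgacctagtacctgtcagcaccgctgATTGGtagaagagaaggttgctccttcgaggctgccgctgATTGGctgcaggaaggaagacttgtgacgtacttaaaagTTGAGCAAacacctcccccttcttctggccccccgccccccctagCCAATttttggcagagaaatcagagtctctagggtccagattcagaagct
Kynu: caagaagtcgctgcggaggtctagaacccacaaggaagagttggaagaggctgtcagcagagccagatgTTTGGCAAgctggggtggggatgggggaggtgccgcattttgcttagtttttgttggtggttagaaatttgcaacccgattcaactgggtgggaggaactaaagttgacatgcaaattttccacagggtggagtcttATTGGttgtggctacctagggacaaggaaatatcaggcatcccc
Tdo2: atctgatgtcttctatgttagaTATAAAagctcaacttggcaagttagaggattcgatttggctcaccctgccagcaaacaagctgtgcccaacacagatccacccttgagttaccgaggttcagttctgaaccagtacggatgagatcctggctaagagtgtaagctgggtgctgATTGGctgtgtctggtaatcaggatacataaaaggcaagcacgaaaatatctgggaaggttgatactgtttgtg
A CCAAT box (CCAAT or its reverse complement) was found in 4 of 5 windows, those of Aass, Kynu, Kmo and Tdo2, and in 34.0% of 33469 promoter windows of the same length. A CEBP motif (TTGCNNAA, either strand) was found in Aass and Kynu and in 9.22% of all windows, and TATAAA in Tdo2 and in 12.9%. The HNF1 motif, the HNF4 direct repeat, the glucocorticoid receptor motif and the XRE core GCGTG were found in 0 of 5 windows, and in 0.00299%, 0.0508%, 0.373% and 25.9% of all windows. No motif match overlapped another. Aass, Kmo and Tdo2 shared the 9-base word GCTGATTGG around their CCAAT box, which 0.995% of all windows contain. This word came from a scan of all 9-base words of the 5 windows on both strands, made after the windows were seen. Only words found in at least 3 windows were kept, so the share over all windows is no measure of enrichment. Tdo2 holds the word although its level changed least. These matches describe letters in the windows and the arrays measured no binding.

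Levels of the members other than Tdo2 differed widely between sets of arrays. Clustering of the 12 DMSO arrays, made on these data, gave 5 array sets that the labels do not name. Set 1 held replicate 1 of every drug, set 2 replicate 2 of BZP, TFMPP and MeOPP, set 3 replicate 3 of BZP and MDBP, set 4 replicate 3 of TFMPP and MeOPP, and set 5 replicate 2 of MDBP. Mean DMSO levels of Acmsd were 6.81, 9.26, 8.00, 5.93 and 9.13 in sets 1 to 5, a range of 3.33, while DMSO arrays within a set differed by at most 0.41. Kmo, Kynu and Haao were all highest in set 3, with DMSO means of 7.97, 8.86 and 10.18, and lowest in set 4, with 5.15, 6.10 and 8.38. Aass was highest in set 3 as well, at 10.30, but lowest in set 1, at 8.57. Tdo2 DMSO means spanned only 0.18. Within sets the mean change of Aass ran from -2.47 to -1.55, of Kynu from -1.80 to -0.88, of Haao from -1.54 to -0.86, of Kmo from -1.44 to -0.33, of Acmsd from -1.01 to -0.48 and of Tdo2 from -0.18 to -0.01. With 1 value per set, limma called 5 members, all but Tdo2 (adjusted p = 0.207). Of 31042 probe sets, 4346 were called in either direction in that fit.

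The changes of the members differed from each other within the same pairs. Of 15 comparisons between 2 members, 13 passed an exact sign-flip permutation test over the 12 pairs after Benjamini-Hochberg adjustment. Tdo2 changed less than each of the other 5, by 0.56 against Acmsd up to 1.69 against Aass, on the log2 scale of the array. Tdo2 lay near the top of that scale, whose highest value was 14.1, and its DMSO means spanned 0.18 between array sets against 1.73 to 3.33 for the others. Whether its signal was compressed there was not tested. At the low end, treated levels went down to 4.97 for Kynu and 4.79 for Kmo, against array medians of 4.454 to 4.524. Set 4, with the lowest DMSO means of both genes, had their smallest mean changes, -0.88 for Kynu and -0.33 for Kmo. Whether background signal limited the size of these changes was not tested. Kynu and Aass could not be ordered (Kynu minus Aass 0.34, SD 0.59, adjusted p = 0.0617 in the exact permutation test), and neither could Kmo and Acmsd (-0.01, SD 0.62, adjusted p = 0.969 in the same test). Haao fell more than Acmsd, the enzyme after it, in 10 of 12 pairs (-0.30, SD 0.36, adjusted p = 0.0214 in the exact permutation test). Kynu fell more than Haao in 11 of 12 pairs (-0.48, SD 0.33, adjusted p = 0.00266 in the exact permutation test). The smallest p this test can give is 0.000488. It flips the 12 pairs as if they were independent, although they fall into 5 array sets. Its p-values may thus be too small. As a description, Pearson's r between the paired changes was highest for Acmsd with Aass (0.71) and Kmo with Kynu (0.70), and lowest for Tdo2 with Kmo (-0.33), over 12 pairs that share array sets.

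Between drugs, no member differed past the threshold. The drugs were given at different molar doses, each its EC20, so each difference is between drugs at their labelled EC20 and not at a matched dose. Of 36 limma tests (6 pairs of drugs for 6 members), 0 passed after adjustment over all probe sets and 7 had an unadjusted p under 0.05. Across all probe sets, 0.0515% were called between BZP and TFMPP and 0% in each of the other pairs, where 1150 to 2151 probe sets had an unadjusted p under 0.05. For benzyl minus phenyl compounds Kmo stood at -0.69 ± 0.18 (95% confidence interval -1.08 to -0.30; unadjusted p = 0.00164, adjusted p = 0.365 in limma), Kynu at -0.45 ± 0.15 (-0.76 to -0.14; adjusted p = 0.471 in limma) and Aass at -0.23 ± 0.19 (-0.64 to 0.17). The intervals for Haao (-0.41 to 0.16), Acmsd (-0.47 to 0.38) and Tdo2 (-0.11 to 0.27) all contained 0. These values do not allow for the array sets, of which set 3 held only benzyl and set 4 only phenyl compounds. With a term for array set, an alternative chosen after seeing the data, the difference was -0.32 ± 0.17 (-0.69 to 0.05) for Kmo, -0.14 ± 0.16 (-0.48 to 0.20) for Kynu and -0.52 ± 0.19 (-0.94 to -0.11) for Aass, and again 0 of 6 members passed. The intervals for Kmo and Kynu then contained 0 and that for Aass did not, while those for Haao, Acmsd and Tdo2 still did. In that fit Aass stood at -0.87 (-1.35 to -0.39) for BZP minus TFMPP and 1.01 (0.43 to 1.58) for TFMPP minus MDBP. It stood at -0.04 (-0.52 to 0.44) for BZP minus MeOPP and 0.18 (-0.40 to 0.75) for MeOPP minus MDBP. The Aass difference thus lay with TFMPP and not with MeOPP. Kmo stood at -0.66 (-1.10 to -0.22) for BZP minus MDBP, within the benzyl class. None of these passed after adjustment. In set 1, which held all the drugs, Kmo changed by -0.50 with benzyl and -0.39 with phenyl compounds, and Kynu by -1.48 and -1.57. In set 2, which held BZP, TFMPP and MeOPP, Kmo changed by -1.29 with benzyl and -0.33 with phenyl compounds, and Kynu by -1.87 and -1.30. The Kynu difference thus had opposite signs in the sets that held both classes. TFMPP minus MeOPP for Aass was 0.83 ± 0.27 (0.26 to 1.40; adjusted p = 0.789 in limma), at 35 and 522 µM. A limma F test of any difference between drugs called 0 members, with 2 at an unadjusted p under 0.05, and 0% of all probe sets, with 1869 at an unadjusted p under 0.05.

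Neighbours in the order of the 8 group means mostly lay within 1 SD of each other. MeOPP had the lowest mean of the 8 groups for each of the 6 genes, from 5.15 ± 0.28 for Kmo to 12.93 ± 0.11 for Tdo2 (SD, n = 3). This order ignores the pairing, and the MeOPP controls likewise had the lowest mean of the DMSO groups for each gene. Among the drugs, the paired change with MeOPP was the smallest for Kmo (-0.29) and the deepest for Aass (-2.12). For Kmo, Kynu and Acmsd all 7 neighbouring means lay within the larger of their SDs. For Haao 6 of 7 did, the exception being MeOPP (7.47 ± 0.17) below TFMPP (7.92 ± 0.19). For Aass the exception was BZP (7.76 ± 0.95) below the MeOPP controls (8.87 ± 0.70), the step between treated and control groups. For Tdo2 MeOPP (12.93 ± 0.11) lay apart from BZP (13.19 ± 0.12), and the BZP controls from the MDBP controls.

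Neighbouring steps of the same routes were examined as lists. Of 42 listed genes, 37 had a probe set, and in the mean of the drugs 28 fell and 2 rose, against a background of 11.9% of genes lower and 18.0% higher with 1 probe set per gene. Their median change was -0.44, against 0.012 over all genes. Of the 28, 8 had a further probe set, and in 4 of these (Got2, Naprt, Hadh and Ddc) that probe set did not pass. By drug 18 fell with BZP (5.96% of genes), 15 with TFMPP (1.71%), 15 with MeOPP (4.52%) and 16 with MDBP (5.05%). With TFMPP this count was 4, 7 or 8 when replicate 1, 2 or 3 of TFMPP was left out. Without the pair terms 11 fell in the mean and 0 with each single drug. That fit called 1927 of 31042 probe sets in either direction in the mean.

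Around the entry of the kynurenine pathway 5 of 6 measured genes fell (median -0.75), against 11.9% of all genes. Aadat, a transaminase of both kynurenine and the lysine product aminoadipate, changed by -0.94 ± 0.07 (SE, n = 12 pairs; limma adjusted p = 7.61e-08), and Kyat3, another kynurenine transaminase, by -0.94 ± 0.06. Ido1, the counterpart of Tdo2 outside the liver, stood at -0.05 ± 0.06 (adjusted p = 0.619), with a low mean level of 3.50. Of 10 genes of quinolinate use and NAD synthesis, 4 fell and 2 rose (median 0.01). The count that rose was near the share of all genes called higher, 18.0%. Qprt, which turns quinolinate into nicotinate mononucleotide, changed by -0.82 ± 0.07 (its other probe set -0.62 ± 0.11), and Nnmt, which methylates nicotinamide, by -0.96 ± 0.07. Nampt, the salvage enzyme for nicotinamide, rose by 0.34 ± 0.07 (adjusted p = 0.0028; other probe set 0.28 ± 0.06). Nmrk1, a nicotinamide riboside kinase, rose by 0.25 ± 0.08 (adjusted p = 0.0362), a call lost without any of 7 pairs, at 0.0608 to 0.103. Its mean level of 4.05 was low, below the median of every array.

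In the glutaryl-CoA branch, where tryptophan and lysine carbon meet, 10 of 11 measured genes fell (median -0.55). Over all genes 11.9% were lower, which is the background for each list here. Gcdh, the glutaryl-CoA dehydrogenase, changed by -1.06 ± 0.06 (limma adjusted p = 2.64e-09), with its other probe sets at -0.34 ± 0.06 and -0.89 ± 0.09. Hadh, a hydroxyacyl-CoA dehydrogenase, changed by -0.98 ± 0.09, but its other probe set stood at -0.11 ± 0.06 (adjusted p = 0.205). Dlst, the succinyltransferase of the oxoacid dehydrogenase complexes, stood at 0.01 ± 0.05. Of 6 measured genes of lysine, hydroxylysine and pipecolate breakdown, 5 fell (median -0.35), led by Hykk, the hydroxylysine kinase, at -1.13 ± 0.07 and Crym, a ketimine reductase, at -0.62 ± 0.07. Phykpl, which acts after Hykk, stood at -0.16 ± 0.06 (adjusted p = 0.071) at a low mean level of 3.60. All 4 measured genes of the serotonin and tryptamine branch fell (median -0.82) by the probe set with the highest mean, among them Maob, a monoamine oxidase, at -1.10 ± 0.05, and Inmt, which methylates tryptamine, at -1.20 ± 0.27. The Inmt call was lost with 1 value per array set, at adjusted p = 0.0623. The other probe set of Ddc, the aromatic amino acid decarboxylase, stood at -0.02 (adjusted p = 0.843) against -0.44 ± 0.11 for the one counted. Of 7 glucocorticoid-responsive genes, Pck1, Tsc22d3 and Tat fell, by 0.37, 0.29 and 0.28, and 4 did not pass (median -0.14). Other probe sets disagreed for Fkbp5, a chaperone of the receptor, at -0.29 (adjusted p = 0.000424) against -0.13 for the one counted, and for the receptor gene Nr3c1, at 0.24 (adjusted p = 0.006) against -0.14.

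**Figure D3:**
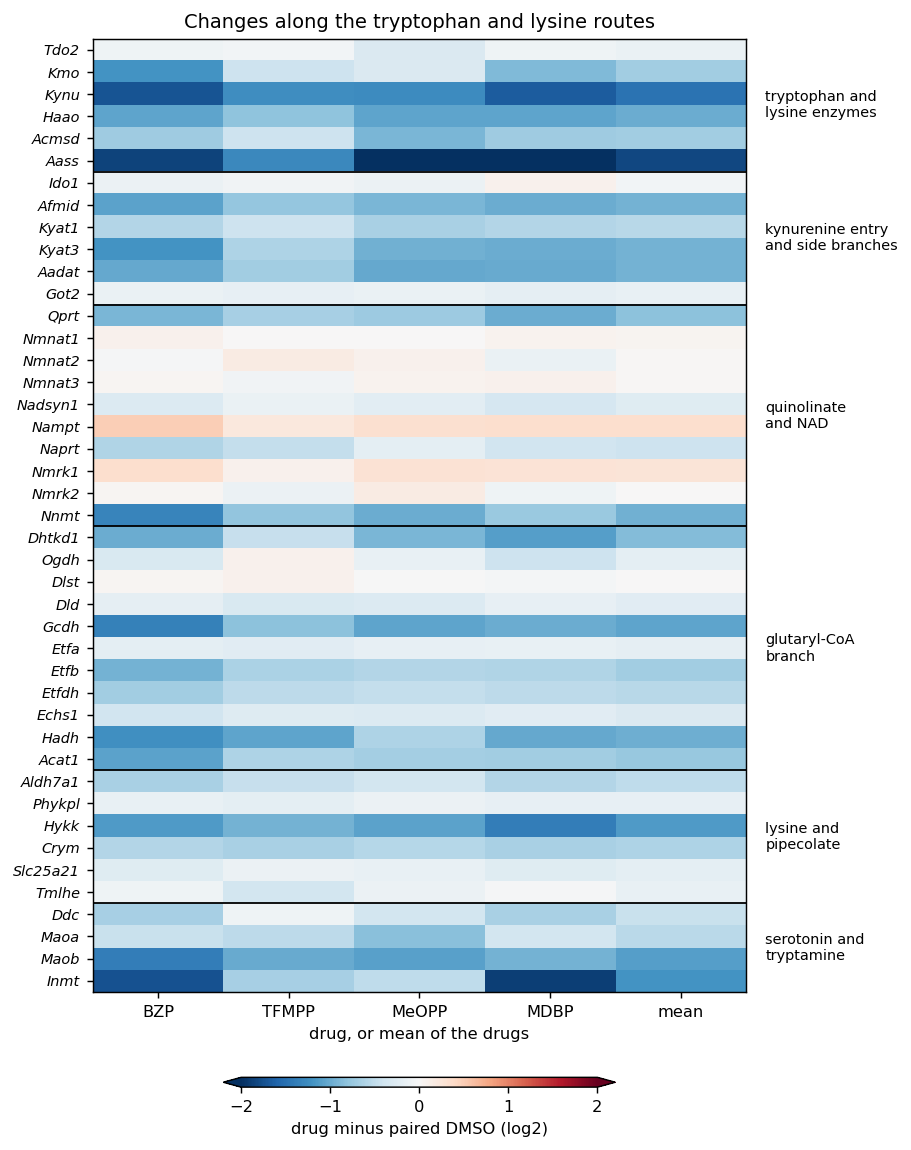
Drug minus paired DMSO (log2, blue lower, red higher, colours end at -2 and 2) for the 6 enzymes and 37 other genes of the same routes, by drug and in the mean of the drugs. Blue fills the rows of Kynu, Haao, Aass, Gcdh and Hykk with every drug, while Nampt is the clearest red row, at 0.34 in the mean.

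The genes whose 12 paired changes were most like those of a member were taken from 8602 genes with a mean log2 level of at least 5. For Aass these were Aadat (Pearson's r = 0.93) and Tent5c (0.91), and for Acmsd Id4 and Selenop (0.92 each). For Kynu they were Il1rn (0.92) and Cyp2c13 (0.91), for Kmo Enpp2 and Atp5mpl (0.87 each), and for Tdo2 Tcim (0.94) and Arg1 (0.92). For Haao they were Orc5 (0.90) and Gpsm2 (0.86). Likeness of pattern did not mean likeness of size, since Orc5 had a mean change of -0.01 ± 0.05. These values describe 12 pairs from 5 array sets and carry no test.

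Hepatocyte markers were high, with mean log2 levels from 7.88 to 14.06 over 7 measured markers and Alb at 14.06. In the mean of the drugs 3 of them fell and 0 rose (median -0.11). Over all genes 11.9% were lower and 18.0% higher, which is the background for every marker count here. Cyp2c11, a male-specific cytochrome P450, changed by -1.24 ± 0.10 (limma adjusted p = 3.37e-07), and Apob, the apolipoprotein of secreted lipoproteins, by -1.02 ± 0.06 (adjusted p = 3.12e-09; other probe set -0.30), each lower in 12 of 12 pairs. Ttr, the thyroxine carrier, changed by -0.24 ± 0.04, and Alb stood at -0.01 ± 0.04. The summed linear signal was 49700 to 63300 in treated samples and 56800 to 66400 in DMSO samples, lower in the treated array in 12 of 12 pairs. Kmo and Kynu are also expressed by macrophages. Of 11 measured Kupffer cell and leukocyte markers 7 fell (Clec4f, Adgre1, Csf1r, C1qa, C1qb, C1qc and Cd14, by 0.23 to 0.48), and Cd68 rose by 0.45 ± 0.08 (median -0.27). Their summed signal was 1480 to 2960 in treated samples and 1670 to 3990 in DMSO samples, with 1 of 12 pairs higher in the treated array. By array set the DMSO sum was 1760, 2090, 3660, 3180 and 1980 in sets 1 to 5. DMSO levels of Kmo and Kynu were highest in set 3 and lowest in set 4. The sum gives most weight to Cd14 and Lyz2 (mean log2 10.0 and 9.35), and its relation to cell content was not tested. Mean levels of 8 of the 11 lay above 4.524, the highest array median, among them Clec4f (5.67), a Kupffer cell receptor, and Cd14 (10.0), and those of Ptprc, Cd163 and Adgre1 lay below it. Stellate cell markers (Col3a1 and Rgs5 of 9 fell, by 0.68 and 0.62, and Dcn rose by 0.18), sinusoidal endothelial markers (0 of 4) and cholangiocyte markers (0 of 4) had medians of 0.01, -0.09 and -0.06. Their summed signals were 375 to 995, 87.8 to 594 and 243 to 484 in treated samples, and 352 to 894, 81.1 to 657 and 250 to 482 in DMSO samples, and Col1a1, Col1a2, Krt19 and Krt7 lay below the array median. Each sum gives most weight to its marker with the highest mean level, Dcn (8.07), Lyve1 (7.38) and Epcam (8.12). The part of these cells in the results was not tested.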

How the data were processed

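RNA of 24 samples was measured on an Affymetrix rat array. The deposited table holds log2 values that the authors made with RMA, per the submitters' processing notes, which name no version. Values were used as deposited (median of each array 4.454 to 4.524). RMA usually sets all arrays to the same distribution, so changes are relative to the bulk of probe sets, and the number of arrays limits precision. From 31099 probe sets, 57 control probe sets were removed. By the platform annotation 20826 of the rest carry 1 gene symbol, 436 several and 9780 none. Where a gene of the other lists had several probe sets, the one with the highest mean stood for it.

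Values were fitted with limma 3.58.1 (R 4.3.3), using 12 terms for pairs and 4 for drugs, which left 8 residual degrees of freedom plus 7.66 from the prior. Benjamini-Hochberg adjustment covered all 31042 tested probe sets, with a call at an adjusted p below 0.05. Confidence intervals are at 95%. The pairing comes from the control titles; deviations from group means correlated at 0.612 to 0.802 within pairs. DMSO arrays were clustered by average linkage on correlation (0.9943 to 0.9971 within sets, 0.9622 to 0.9919 between sets). The code was tested on simulated data. Exact sign-flip tests used Python 3.11.15, and plots matplotlib 3.10.9.

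The members and lists were chosen with earlier results of these data known. Named genes were the members, the 2 largest rises and falls of each pathway list, any gene there of a count of 3 or fewer, and the 2 genes most like each member. Cell type markers, and genes whose probe sets disagree, were named after their values were seen. Alternatives changed the pairing, control group, arrays in the fit, scaling, level filter, array weights, prior, probe set rule and arrays left out, and a term for array set was added after seeing the data.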

Additional observations from a re-analysis of the deposited data

How the results depend on the processing

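The number of arrays limits precision, and the labels name no batch. The pairing carried much of the power. With no replicate block, probe sets called were 38 for BZP, 1 for TFMPP, 12 for MeOPP, 28 for MDBP, 1927 for the mean and 0 for BZP minus TFMPP, and members called were 0 with each single drug and 3 in the mean. With no block and the 12 DMSO arrays joined, they were 386, 20, 796, 294, 2156 and 0, and members called were 0 for BZP, TFMPP and MDBP, 3 for MeOPP (Tdo2 at adjusted p = 0.00582, Haao and Aass) and 3 in the mean. In the main analysis the probe set counts were 2867, 551, 1865, 2167, 6952 and 16. With the arrays of the drug alone, 1063 were called for BZP and 1092 for TFMPP. With array weights, 1357 were called for TFMPP, 26 for BZP minus TFMPP, 1 for TFMPP minus MDBP and 10 for benzyl minus phenyl, and a robust prior with trend gave 8 for the last of these. Repeated quantile normalization gave 10 for BZP minus TFMPP, and 1 value per array set gave 4346 for the mean. The cause of these shifts was not tested.

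With a replicate left out, probe sets called ran from 1461 to 3053 for BZP, 139 to 701 for TFMPP, 819 to 2109 for MeOPP, 821 to 2530 for MDBP and 6002 to 6847 for the mean. They ran from 0 to 34 for BZP minus TFMPP, 0 to 1 for BZP minus MeOPP and for TFMPP minus MDBP, and 0 to 13 for benzyl minus phenyl. Members called ran from 4 to 5 for BZP, 2 to 3 for TFMPP, 3 to 4 for MeOPP, 3 to 5 for MDBP and 5 to 6 for the mean, and differing pairs of members from 12 to 14. Of 666 values of single members in the drug and mean comparisons, 589 kept their direction and side of the threshold, 73 lost the call, 4 gained it and 0 reversed a call. The call of Tdo2 for the mean was lost in 20 of 27 alternatives. All 882 values for differences between drugs stayed short of the threshold.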
